A study of Oedaleus asiaticus with 9 samples.

Results

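The 5th nymphal instar of the grasshopper *Oedaleus asiaticus* was set against the stages on both sides of it, the 3rd nymphal instar and the adult, to find miRNAs that peak or dip in the last nymphal instar. All 365 miRNA entries of the deposited table were taken (365 of 365), and all 9 small RNA libraries entered the comparison. Each stage was represented by 3 libraries of females kept under normal feeding without any treatment and sampled at an age of 3 days within the stage. The labels give no body part, tissue or strain. Whether the libraries of a stage stem from different animals is not said either. The p-values therefore measure only how far these samples spread, which may be technical.

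The measured quantity, called the contrast here, was the log2 level in the 5th instar minus the average of the log2 levels of the 3rd instar and the adult. A miRNA that climbs or declines evenly over the 3 stages has a contrast near 0. A positive contrast can come from a peak in the 5th instar, but also from a level that changes at only 1 of the steps, so both steps are given beside it. Of the 365 entries, 179 had enough counts to be tested, 151 of a known family and 28 predicted by the authors. The 186 untested entries held 0.0154% of all counts. Among them, 3 had counts in 5th instar libraries only, with at most 22 counts in all. Another 18 had counts only in the other stages, which hold 6 of the 9 libraries.

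Nymphs of grasshoppers grow by moults that are driven by the steroid hormone ecdysone. Juvenile hormone, acting through the transcription factor Kr-h1, keeps a moult nymphal, and its fall in the last nymphal instar lets the next moult produce the adult with wings and a maturing reproductive system. A miRNA guides the silencing of mRNAs mainly through its seed, the bases 2 to 8 from its 5′ end. In flies, the let-7 complex (miR-100, let-7 and miR-125) comes on with the ecdysone pulses of metamorphosis, and in locusts and cockroaches let-7, miR-278 and the miR-2 family act on Kr-h1. In fly cells ecdysone lowers miR-34, and the genes of miR-277, miR-317 and miR-34 lie in 1 cluster of the fly genome. Whether they are clustered in this grasshopper was not examined here.

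The sequences of the miRNAs on which the comparison turned are given as deposited, as DNA letters with the seed in capitals. The first 3 belong to the families of the fly cluster and have different seeds. The next 3 are entries of the miR-184 family, of which miR-184-y and miR-184-z share their seed and 5′ end while miR-184-x has another sequence. The others are examples of dips, of shallow peaks and of a level that differed at 1 step only.
miR-34-x: tGGCAGTGtggttagctggttgt
miR-317-x: gGGGAGCCactctgagttcact
miR-277-y: tAAATGCActatctggtacgaca
miR-184-x: cCTTGTCAttctcctgtccagt
miR-184-y: tGGACGGAgaactgataagg
miR-184-z: tGGACGGAgaactgataagggcat
miR-210-y: cTTGTGCGtgtgacagcggct
miR-14-y: tCAGTCTTtttctctctcctat
miR-2788-y: cAATGCCCttggaaatcc
let-7-x: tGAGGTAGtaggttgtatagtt
miR-305-x: aTTGTACTtcatcaggtgctctgg

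Library totals ran from 1462586 to 5309504 counts, the 5th instar libraries holding 1918962 to 2282357. The most abundant entry, a predicted one of 18 nt, took 59.1% to 74.0% of the counts of each library. Levels are given as normalised CPM, counts scaled by the library total and its TMM factor. Over entries, which are no independent replicates, log levels correlated on average at 0.948 to 0.962 between a 5th instar library and the other 2 of its stage. Within the other stages this was 0.964 to 0.980, so the 5th instar libraries were the least alike. Each 5th instar library correlated no better with its own stage than with the other stages (0.950 to 0.966), unlike every other library. Markers of muscle (miR-1-y, 8318 to 16150 CPM) and of neurons (miR-124-y, 0.950 to 6.34 CPM) had counts in all 9 libraries.

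No miRNA was called as higher or lower in the 5th instar than the average of the flanking stages. The quasi-likelihood test of edgeR called 0 of 179 entries (0%) by the limits the series states, which are a Benjamini-Hochberg adjusted p below 0.05 with a log2 difference beyond 1 either way, and 0 without the fold limit. The lowest adjusted p was 0.468. An unadjusted p under 0.05 was reached by 16 entries (8.94%), of which 8 (4.47%) had positive and 8 (4.47%) negative contrasts, and DESeq2 called 0 with 21 at an unadjusted p under 0.05. A stricter test asked for a turn, a difference from both flanking stages in the same direction. It called 0 entries (0%), and 0 had an unadjusted p under 0.05 at both steps in the same direction by edgeR (1 by DESeq2). The smallest of these p-values was 0.0656, for miR-210-y.

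The 5th instar mean lay between the other 2 stage means for 93 entries (52%), above both for 36 (20.1%) and below both for 50 (27.9%). The median contrast was 0.0019, and its absolute value had a median of 0.23 with a median standard error of 0.27. The adult minus the 3rd instar, fitted on the same libraries, had a median absolute log2 difference of 0.48 with a median standard error of 0.31. It reached an unadjusted p under 0.05 for 64 entries and an adjusted one for 14, against 16 and 0 for the contrast. The 28 entries with a mean of at least 1000 CPM had contrasts of -0.46 to 0.28 with a median standard error of 0.13. Among these abundant entries the fitted departure of the 5th instar from its flanks was thus at most 0.46 either way on the log2 scale.

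**Figure D1:**
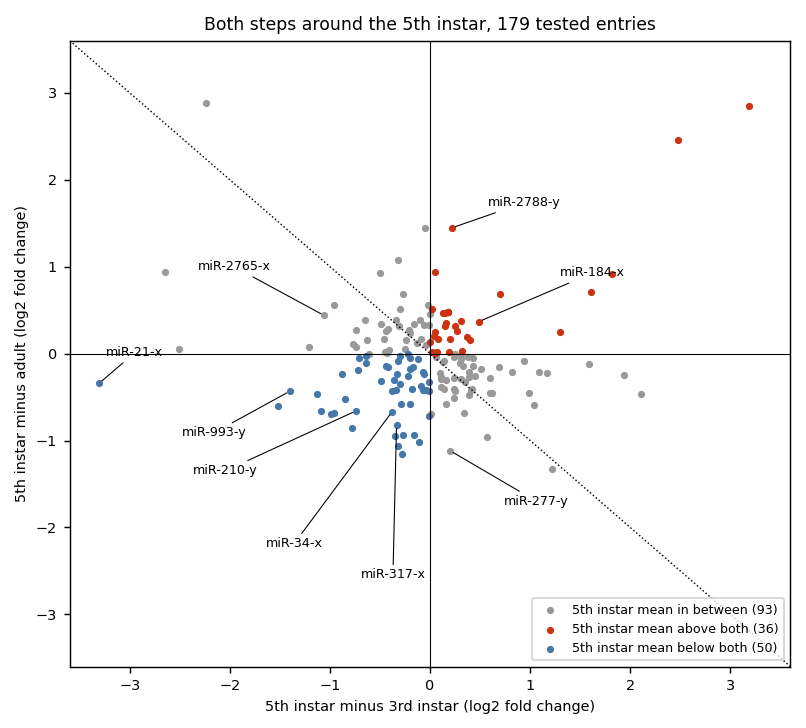
Each point is 1 of the 179 tested entries, with the log2 fold change from the 3rd to the 5th instar on the x axis and the 5th instar minus the adult on the y axis; both axes use the same 5th instar libraries, the dotted line marks a contrast of 0, and 6 entries lie beyond the axes. Entries above both other stages (36, red) fall mostly in the upper right and those below both (50, blue) in the lower left, while the 93 grey entries lie in between; thin lines tie 9 names to their points.

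Of the entries below both other stages, miR-34-x had the smallest p in the contrast. Its level was 120, 166 and 190 CPM in the 3rd instar, 119, 134 and 113 CPM in the 5th instar and 202, 172 and 207 CPM in adults. The 3 libraries of the 5th instar lay below every adult library and overlapped the lowest 3rd instar library. The contrast was -0.52 ± 0.17 (SE, edgeR adjusted p = 0.468), with a step of -0.38 from the 3rd to the 5th instar and a level in the 5th instar 0.67 below that of the adult on the log2 scale. The longer entry miR-34-z, which starts with the whole sequence of miR-34-x, had a contrast of -0.65 ± 0.45 (edgeR adjusted p = 0.553).

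A second family of the fly cluster, miR-317, is linked in flies to female responses to mating. miR-317-x stood at 31.7, 43.6 and 35.5 CPM in the 3rd instar, 29.6, 29.0 and 29.3 CPM in the 5th instar and 56.2, 42.9 and 56.0 CPM in adults. All 3 libraries of the 5th instar lay below the other 6, as they did for 2 of all 179 entries (1.12%). Scaled by library totals instead of TMM factors, they overlapped the 3rd instar libraries and stayed below the adult ones. The contrast was -0.58 ± 0.19 (edgeR adjusted p = 0.468). The abundant miR-317-y, with another seed, had a contrast of 0.02 ± 0.12. Its longer form miR-317-z was at -0.38 ± 0.23.

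The third family, miR-277, controls the breakdown of branched-chain amino acids in flies. miR-277-y did not dip: it stood at 1827, 1719 and 1604 CPM in the 3rd instar, 1752, 1934 and 2229 CPM in the 5th instar and 5783, 3266 and 3779 CPM in adults. Its contrast of -0.46 ± 0.17 (edgeR adjusted p = 0.468) came from the adult step alone, the nymphal stages overlapping. So of the 6 tested entries of these 3 families 5 had negative contrasts and 1 a slightly positive one, and 4 lay below both other stages. With library totals in place of TMM factors the signs were the same, at -0.33 for miR-34-x and -0.39 for miR-317-x, but neither of these 2 then had an unadjusted p under 0.05, and miR-317-z lay between the other stages. The contrast of miR-277-y was then -0.27, also without an unadjusted p under 0.05. That of the abundant miR-317-y was 0.22, and its 5th instar mean then lay above both other stages.

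miR-184 acts in egg formation and early embryos of flies, and its entries differed in direction. miR-184-x stood at 21.4, 22.4 and 19.8 CPM in the 3rd instar, 31.0, 28.0 and 30.1 CPM in the 5th instar and 26.5, 22.4 and 20.4 CPM in adults. It was the single entry of the 179 (0.559%) whose 3 libraries of the 5th instar all lay above the other 6. Either way, the 5th instar libraries lay apart for 3 entries (1.68%). Among 179 entries a few such separations can arise without a difference between stages. The contrast was 0.43 ± 0.19 (edgeR adjusted p = 0.468). miR-184-z stood at 28.1, 28.7 and 24.2 CPM in the 3rd instar, 20.8, 21.8 and 21.04 CPM in the 5th instar and 29.8, 27.7 and 28.0 CPM in adults. Here the 5th instar libraries all lay below the other 6, with a contrast of -0.38 ± 0.19 (edgeR adjusted p = 0.483). This separation depended on the TMM factors, since with library totals the 5th instar overlapped both other stages. The abundant miR-184-y, at 3612 to 4469 CPM in the 5th instar and 4008 to 5517 CPM in the others, had a contrast of -0.24 ± 0.13 and overlapped.

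Within a library, the ratio of miR-184-y to miR-184-x counts does not depend on the scaling of libraries. It was 187, 246 and 234 for 3rd instar nymphs, 144, 129 and 135 for 5th instar nymphs and 199, 219 and 214 for adults. The 5th instar ratios lay below the other 6. This ratio was picked with its values in view and carries no test, and each ratio rests on 40 to 94 counts of miR-184-x.

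**Figure D2:**
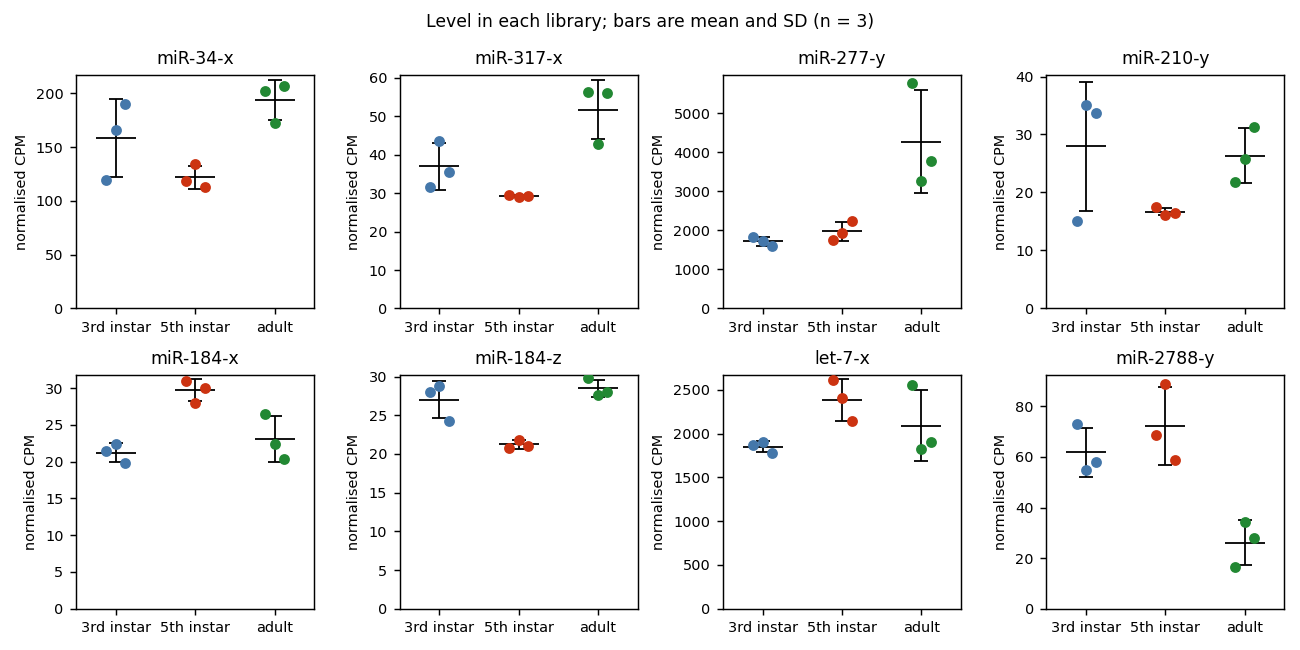
Normalised CPM of 8 miRNAs in each of the 9 libraries, coloured by stage, with the mean and SD of 3 libraries as black bars; each panel has its own y axis starting at 0. The 5th instar points of miR-317-x and miR-184-z lie below all others and those of miR-184-x above all others, while miR-277-y and miR-2788-y differ between the adult and both nymphal stages.

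Among the other entries with a 5th instar mean below both stages, the form differed from entry to entry. miR-210-y, a miRNA of clock neurons and photoreceptors in flies, stood at 15.0, 35.1 and 33.7 CPM in the 3rd instar, 17.4, 16.1 and 16.5 CPM in the 5th instar and 21.8, 25.8 and 31.3 CPM in adults. The 5th instar libraries lay below all adult libraries and above the first 3rd instar library. Its contrast was -0.70 ± 0.29 (edgeR adjusted p = 0.468), with nearly equal steps of -0.74 from the 3rd instar and -0.66 against the adult.

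miR-993-y, whose gene lies in the Hox cluster of arthropods, stood at 21.1, 37.3 and 15.4 CPM in the 3rd instar, 9.21, 11.9 and 6.76 CPM in the 5th instar and 13.9, 11.8 and 11.95 CPM in adults. Its contrast of -0.92 ± 0.34 (edgeR adjusted p = 0.468) came mainly from the step between the nymphal stages, since the 5th instar and adult levels overlapped. miR-14-y, which acts in ecdysone signalling and fat storage in flies, had the same form at a high level, with 10270, 8478 and 7816 CPM in the 3rd instar, 5892, 4834 and 6261 CPM in the 5th instar and 5881, 5573 and 5792 CPM in adults. Its contrast was -0.33 ± 0.13 (edgeR adjusted p = 0.468), and its 5th instar and adult levels differed by 0.02 on the log2 scale, so that it did not dip between the stages. miR-252-x, of a family that restrains growth in flies, stood at 90.7 ± 15.2, 58.1 ± 6.24 and 62.5 ± 7.64 CPM (SD, n = 3) in stage order, with a contrast of -0.37 ± 0.17. The entry miR-251-z has the same deposited sequence but lower counts of its own, with a contrast of -0.33 ± 0.21, so how reads were divided between both names is uncertain.

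Among predicted entries below both stages, 1 of 18 nt had a contrast of -0.69 ± 0.33 and 1 of 22 nt a contrast of -0.79 ± 0.38. A further one of 25 nt stood at 17.8 ± 0.997, 9.09 ± 4.67 and 14.4 ± 7.91 CPM in stage order (SD, n = 3), a contrast of -0.82 ± 0.40. None of the 3 had an adjusted p under 0.05 by edgeR (0.468 to 0.483), and the 5th instar overlapped the adult for each of them except that of 18 nt.

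Peaks of even replicates were shallow. let-7-x, the miRNA of metamorphic timing, stood at 1871, 1907 and 1782 CPM in the 3rd instar, 2616, 2403 and 2140 CPM in the 5th instar and 2553, 1824 and 1901 CPM in adults. Every 5th instar library exceeded every 3rd instar library, while 1 adult library reached the 5th instar range. The contrast was 0.28 ± 0.13 (edgeR adjusted p = 0.468). miR-305-x, which adjusts insulin and Notch signalling in fly gut stem cells, stood at 7844, 6010 and 6446 CPM in the 3rd instar, 7292, 9370 and 7854 CPM in the 5th instar and 7559, 6078 and 6793 CPM in adults. Its steps were nearly equal at 0.27 and 0.26, with a contrast of 0.27 ± 0.13 (edgeR adjusted p = 0.483), and 1 5th instar library overlapped the others.

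miR-10-x, of the Hox cluster, stood at 510, 526 and 441 CPM in the 3rd instar, 586, 584 and 463 CPM in the 5th instar and 416, 438 and 326 CPM in adults. The 5th instar libraries exceeded all adult libraries and overlapped the 3rd instar, with a contrast of 0.31 ± 0.14 (edgeR adjusted p = 0.468). The smallest p of the whole comparison belonged to miR-2788-y, at 72.9, 54.8 and 57.96 CPM in the 3rd instar, 68.8, 88.8 and 58.6 CPM in the 5th instar and 16.5, 34.2 and 27.8 CPM in adults. Its contrast was 0.83 ± 0.23 (SE, edgeR adjusted p = 0.468). This was no peak beyond the replicate spread, because the nymphal stages overlapped (step of 0.22) and the adult alone differed, with the 5th instar 1.45 above it on the log2 scale (edgeR adjusted p = 0.0151 for that step). The adult step passed for 3 entries in all, the others being miR-277-y and miR-9-z (edgeR adjusted p = 0.0151 each).

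Other entries with an unadjusted p under 0.05 had no turn at the 5th instar either. miR-2765-x, chosen after its values were seen, fell from 2671 ± 422 CPM in 3rd instar nymphs to 1283 ± 231 in the 5th and stood at 946 ± 24.8 in adults (SD, n = 3), a contrast of -0.31 ± 0.14. All its 5th instar libraries lay above the adult ones, by 0.44 on the log2 scale (edgeR adjusted p = 0.296). A predicted entry of 23 nt, chosen in the same way, rose by 1.17 on the log2 scale from the 3rd to the 5th instar and differed by 0.22 between the 5th instar and the adult (contrast 0.48 ± 0.14). The steps of these 2 entries from the 3rd to the 5th instar passed edgeR's adjusted p (0.00233 each). This step passed for 4 entries in all, the others being miR-14-y and miR-21-x (edgeR adjusted p = 0.0484 each). The 5th instar means of miR-2765-x and the 23 nt entry lay between the other 2 stages. miR-21-x, of a family known from vertebrates, stood at 17.7, 7.09 and 10.4 CPM in the 3rd instar, 1.45, 0 and 1.88 CPM in the 5th instar and 0.662, 2.18 and 1.30 CPM in adults. The library with no count allowed up to 1.42 CPM (3 counts, counting error only), and the 5th instar and the adult overlapped.

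Several of the largest fitted contrasts belonged to short entries that were high in only some of the 5th instar libraries. miR-8503-z (19 nt) stood at 2.67, 9.70 and 4.19 CPM in the 3rd instar, 11.1, 3.8 and 561 CPM in the 5th instar and 21.2, 3.42 and 4.56 CPM in adults. Library 3 of the 5th instar held 26.5 times the next highest value. The contrast was 4.77 ± 1.53 with all libraries and 0.09 without that library. A predicted entry of 20 nt stood at 74.5, 255 and 100.3 CPM in the 3rd instar, 193, 89.8 and 2109 CPM in the 5th instar and 234, 61.2 and 142 CPM in adults. The same library was the high one, and its contrast of 2.47 ± 1.03 was -0.01 without it. These were the 2 entries whose highest library, at 3 times the next or more, was of the 5th instar, out of 4 such entries in all (2.23% of the tested).

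In 3 other short entries, 2 of the 5th instar libraries carried the level and 1 had no count. miR-6216-z (18 nt) stood at 0.334, 0 and 0 CPM in the 3rd instar, 104, 0 and 101 CPM in the 5th instar and 0, 24.2 and 68.4 CPM in adults. miR-7197-y (18 nt) had no count in the 3rd instar, 19.9, 0 and 17.3 CPM in the 5th instar and 5.95, 22.1 and 5.21 CPM in adults. In both, the second 5th instar library was the one without a count. The 5th instar overlapped the adult in both, so neither was a peak beyond the replicate spread. miR-8315-y (18 nt) stood at 0.668, 6.71 and 1.10 CPM in the 3rd instar, 33.4, 41.8 and 0 CPM in the 5th instar and 3.31, 5.59 and 1.52 CPM in adults, here without a count in the third library. The libraries without a count for these entries allowed between 0.661 and 1.98 CPM (3 counts). All 3 had an edgeR adjusted p of 0.468 in the contrast, and no fold is given because a fitted value against libraries at 0 depends on the prior count. Without the second 5th instar library, miR-7197-y was called, the single call in any setting (edgeR adjusted p = 0.0324). This call was no peak either, because it rested on the missing counts of the 3rd instar. The remaining 5th instar levels of 19.9 and 17.3 CPM lay within the adult range of 5.21 to 22.1 CPM. miR-6651-x (22 nt), chosen after its values were seen, was also uneven, at 6.30, 1.42 and 11.3 CPM in the 5th instar against 1.54 to 3.97 CPM elsewhere (contrast 1.37 ± 0.56, edgeR adjusted p = 0.468).

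**Figure D3:**
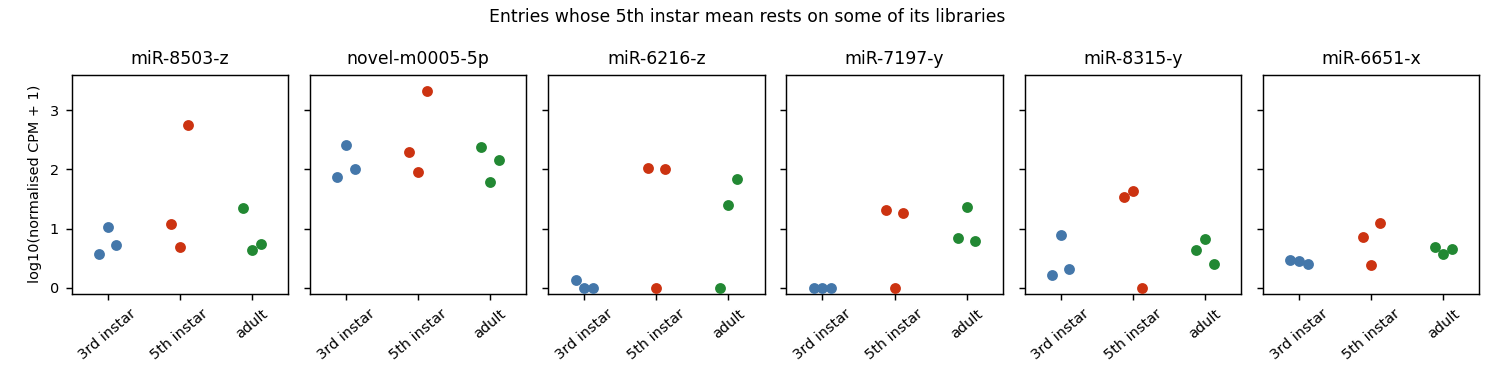
log10 of normalised CPM plus 1 in each library for 6 entries, coloured by stage, with the 3 libraries of a stage drawn left to right in replicate order. In miR-8503-z and the predicted 20 nt entry, library 3 of the 5th instar stands alone at 561 and 2109 CPM, and in miR-6216-z, miR-7197-y and miR-8315-y 1 of the 5th instar libraries has no count.

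None of the 10 miRNA lists held a called entry, against 0% of all tested entries. The lists were chosen with earlier results of these data known and are described by counts, beside a background of 90 higher (50.3%) and 89 lower contrasts (49.7%) among the tested entries and a median of 0.0019. Ecdysone signalling and moulting had 22 tested entries (of 27), with 8 positive and 14 negative contrasts and a median of -0.12. The lower ones included miR-34-x and miR-14-y, the 2 with an unadjusted p under 0.05. miR-71-x, a regulator of chitin turnover in moulting locusts like miR-263, had a contrast of -0.19 ± 0.13, and miR-263-x one of 0.02 ± 0.34. In the list for juvenile hormone signalling, 8 of 10 tested entries (of 12) were higher, with a median of 0.14, and 5 lay above both stages. They included miR-278-y (0.28 ± 0.16), miR-2-y (0.15 ± 0.10) and miR-13-y (0.12 ± 0.12). In the let-7 complex 7 of 8 entries were higher (median 0.14), with miR-100-x at 0.18 ± 0.12 and miR-125-x at 0.17 ± 0.11. The 2 lists share the 3 let-7 entries, and 0 of the members of either reached an unadjusted p under 0.05. The tested entries of let-7, miR-2 and miR-71 stand in both the ecdysone and the juvenile hormone list. The counts of those lists are therefore not separate results.

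In the list for growth, insulin signalling and metabolism, 6 of 20 tested entries were higher and 14 lower (median -0.15), with miR-277-y and miR-14-y lower and miR-184-x higher at an unadjusted p under 0.05. bantam-y, a miRNA of tissue growth and cell survival in flies, was at 23043, 22443 and 22663 CPM in the 5th instar and within the range of the other libraries (contrast 0.12 ± 0.15). Wing growth and patterning had 8 of 14 tested entries (of 20) higher (median 0.03). Its member miR-9-z stood in stage order at 6302 ± 626, 5242 ± 289 and 3261 ± 170 CPM (SD, n = 3), and its contrast was 0.21 ± 0.11. In the Hox cluster list 6 of 7 tested entries (of 12) were higher, but 4 of these 6 are 1 sequence of iab-4 listed under 4 names (contrast 0.33). Female reproduction had 6 of 15 entries higher (median -0.05), and its miR-8, miR-184, miR-275 and miR-305 entries are also in the growth list. miR-276-y, the most abundant known miRNA, which synchronises egg hatching in locusts, had a contrast of 0.07 ± 0.13.

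The 4 tested muscle markers (of 6) all had negative contrasts (median -0.19). Their summed level was 8706 to 11444 CPM in the 3rd instar, 9529 to 10547 CPM in the 5th instar and 11898 to 16726 CPM in adults, so that the nymphal stages overlapped and the adult libraries lay above them. miR-1-z stood at 127 ± 12.1, 124 ± 1.02 and 166 ± 3.19 CPM in stage order (contrast -0.23 ± 0.13). Fewer muscle cells and less miRNA per cell cannot be told apart in such libraries. Neuron markers had 3 of 8 tested entries (of 10) higher (median -0.08), and their sum was 13071 to 14707 CPM in the 5th instar, between 15892 to 18463 CPM in the 3rd instar and 9886 to 11198 CPM in adults. Abundant members such as miR-9-z carry this sum. The scarce miR-124-y went another way, at 4.40 ± 1.68, 2.00 ± 0.916 and 3.05 ± 1.56 CPM in stage order (SD, n = 3). Its contrast was -0.87 ± 0.60, and its 5th instar and adult libraries overlapped. The 4 tested entries (of 8) of families known from vertebrates all had negative contrasts (median -1.14), with sums of 54.1 to 204 CPM in the 3rd instar, 13.8 to 42.1 CPM in the 5th instar and 23.8 to 39.2 CPM in adults. miR-29-y was at 12.5 ± 4.61, 4.22 ± 3.48 and 6.58 ± 1.12 CPM in stage order. The part of such RNA in any result was not tested.

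**Figure D4:**
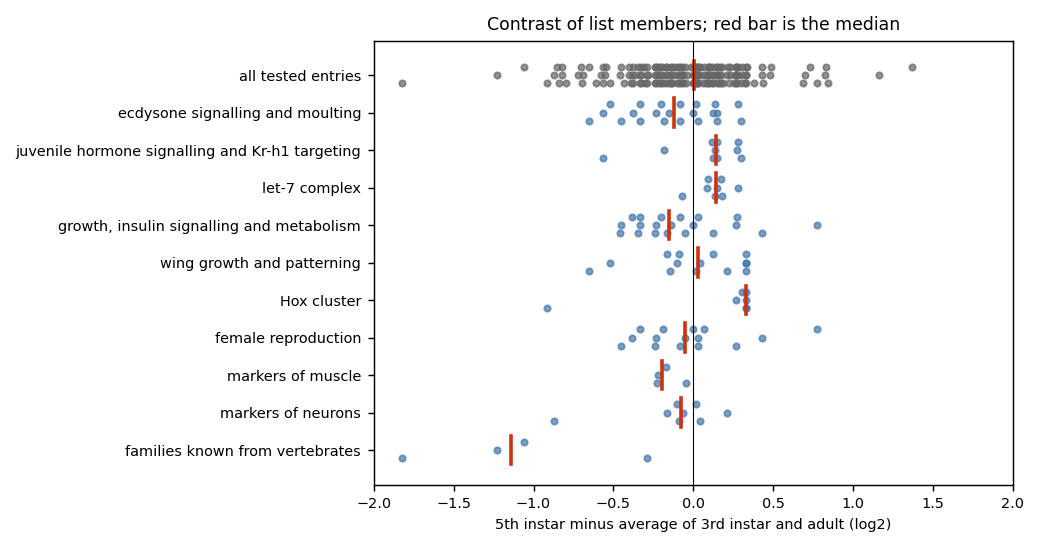
The contrast (log2) of each tested member of the 10 lists, with all 179 tested entries in the top row and the median as a red bar; 8 of all entries lie beyond the axis at an absolute value above 2. The medians of the let-7 complex and of juvenile hormone signalling are 0.14 and that of the families known from vertebrates is -1.14.

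Long entries had lower contrasts than the rest. Of the 24 tested entries of 24 or 25 nt, 21 were lower in the 5th instar and 15 lay below both other stages, against 68 lower (43.9%) and 35 below both among the 155 shorter entries. Their median contrast was -0.20, that of the shorter ones 0.03. None of the 24 reached an unadjusted p under 0.05 by edgeR. The class was noticed in these data and was not tested as a set. When libraries were scaled by their totals, 13 of the 24 were lower and 6 lay below both, but the median still lay 0.24 below that of the shorter entries, against 0.23 with TMM factors. Without the first adult library 18 of 24 were lower, with a median of -0.07.

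Several entries extend a shorter entry at its 3′ end and share its seed, among them entries of 24 or 25 nt. Examples are shown with the added bases in capitals, miR-317-z extending miR-317-y, miR-275-z extending miR-275-y and miR-71-z extending miR-71-x by 2 bases each.
miR-317-z: tgaacacagctggtggtatctCT
miR-275-z: tcaggtacctgaagtagcgcgcgTT
miR-71-z: tgaaagacatgggtagtgagatGA

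Among 24 pairs of tested entries with the same 5′ end, the longer one had the lower contrast in 19 and the higher one in 5. The share of the longer entry in a pair does not depend on library scaling, and it was lowest in the 5th instar for 12 pairs and highest for 3. miR-317-z made up 5.43% ± 0.455 of its pair in 3rd instar nymphs, 3.12% ± 0.0649 in 5th instar nymphs and 3.08% ± 1.24 in adults (SD, n = 3). miR-275-z made up 0.720% ± 0.157, 0.451% ± 0.124 and 0.587% ± 0.257 in stage order, with the 5th instar below the 3rd instar libraries and overlapping the adults. miR-71-z made up 1.24% ± 0.163, 0.703% ± 0.335 and 0.689% ± 0.141, in the same arrangement. In 1 pair, miR-125-z with miR-125-x, the 5th instar libraries lay below the other 6, at a share of 13.2% ± 0.285 against 14.5% ± 1.39 in the 3rd instar and 16.01% ± 1.68 in adults. The median over pairs of the log2 ratio of longer to shorter, centred on each pair's mean, was 0.39, 0.06 and 0.13 for 3rd instar nymphs. It was -0.09, -0.11 and -0.13 for 5th instar nymphs and 0.06, -0.26 and -0.14 for adults. The 5th instar values therefore lay below the 3rd instar and within the range of the adults.

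**Figure D5:**
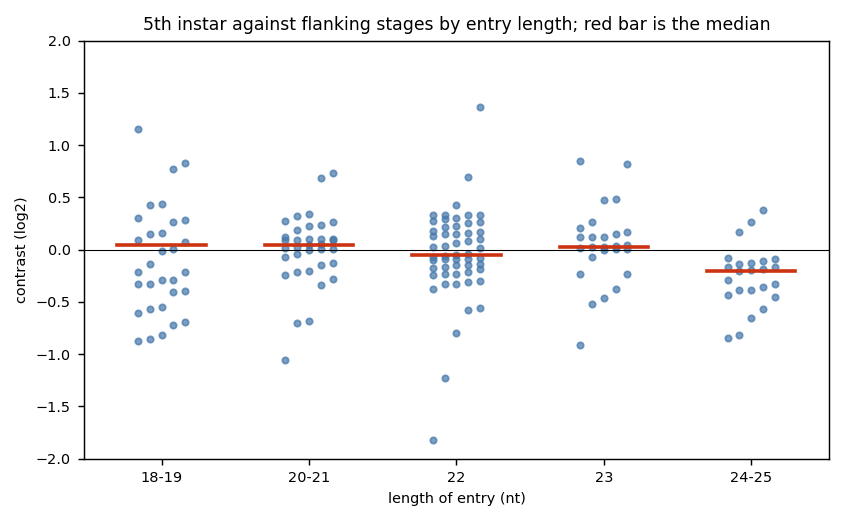
The contrast (log2) of tested entries grouped by their length in nt, with the median of each group as a red bar; entries beyond an absolute value of 2 are not drawn. The group of 24 to 25 nt has a median of -0.20, with 21 of its 24 entries below 0.

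Entries of 1 seed did not always share a direction. The 179 tested entries had 131 seeds, of which 36 were shared by 84 entries, and in 20 of the 36 all entries had contrasts of 1 sign. Some of these 20 are 1 sequence under several names, as for iab-4, miR-252-x with miR-251-z, miR-2779-z with miR-7550-z and a predicted pair. Most shared seeds hold only 2 entries, where a shared sign can easily arise without a common change. miR-200-y and miR-236-z, both lower, also have the same deposited sequence. The seed AATACTG of miR-8-y, miR-8-z, miR-200-y and 2 miR-236 entries had 4 lower and 1 higher. The seed ATCACAG, shared by miR-13-y, miR-11-y and miR-2-z, had 3 contrasts of 0.12 to 0.15. When counts were summed by seed and all 132 seeds that could be tested were fitted, a step chosen after seeing the data, 0 were called (lowest edgeR adjusted p = 0.349). The sum of the miR-34 seed GGCAGTG stood at 136, 166 and 199 CPM in the 3rd instar, 122, 138 and 121 CPM in the 5th instar and 204, 168 and 209 CPM in adults, with a contrast of -0.50 ± 0.16.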

How the data were processed

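Gel-purified small RNAs of 15 to 30 nt gave single-end reads of 50 bp from an Illumina HiSeq, per the labels' protocols. No label or header names the aligner, counting tool or reference. The deposited table holds raw read counts per miRNA entry, not normalised by the authors, and the authors' TPM values, which are counts scaled by a library total without length, per the file headers and as tested on the table. The listed counts made up 97.2% to 98.6% of that total. Reads carry no molecular identifiers, so limits on zero counts cover counting error only. Names ending in x, y or z are kept as deposited.

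Counts of entries kept by filterByExpr with stage as the group were fitted with edgeR 4.0.16 (TMM, robust quasi-likelihood, 3 stage means, 9 libraries) in R 4.3.3. The contrast was 5th instar minus the average of both other stages; p-values were Benjamini-Hochberg adjusted over all tested entries. A turn took the larger p of both steps and needed steps of the same sign above 0.5 (log2). Standard errors are the log2 difference over the square root of F. Members, lists and named entries were chosen with earlier results of these data known. Named were called entries, the 10 above and 10 below both stages with the smallest p and at least 10 CPM, 2 predicted entries in each direction, the 5 most abundant, and 2 per list. The script was tested on simulated counts with 5th instar changes of 2-fold and 4-fold. The limits for a call recovered 31.5% and 79.75% of these, and those for a turn 24% and 67.25%. A 2-fold change lies at the fold limit itself, and the adjusted p alone recovered 43.75% of them. Each simulation changed 40 entries, and recovery can be lower where fewer entries change. Changes of 2-fold can therefore be missed in this design. DESeq2 1.42.0, other scalings and filters, and leaving out each library were alternatives.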

Additional observations from a re-analysis of the deposited data

How the results depend on the processing

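The number of called entries was 0 with TMM and in every alternative except those named here. It was 0 to 1 when 1 library was left out, the 1 being miR-7197-y without the second 5th instar library, and 16 by an unadjusted p alone. The number of turns was 0 in every setting in which it was computed, and it has no value with the flanking libraries as 1 group. With the replicate number as a block 0 entries were called and 18 had an unadjusted p under 0.05. Whether the numbers pair the libraries was not settled. Deviations of same-numbered libraries correlated at -0.22 to 0.41, and those of differently numbered ones at -0.41 to 0.26. Entries at an unadjusted p under 0.05 numbered 25 with library totals alone, 39 without a filter, 8 with the flanking libraries as 1 group, and 11 to 25 without 1 library each (25 without the first adult library). Library totals shifted the median contrast to 0.19 and the split from 50.3% to 69.3% higher. The 5th instar mean lay above both stages for 66 entries and below both for 23 with library totals, 66 and 24 with totals implied by TPM, and 90 and 106 without a filter. It lay below both for 27 under the strict filter (10 CPM in 3 libraries), 31 without entries of 18 or 19 nt and 33 with seeds summed. The 5th instar libraries lay apart from the others for 5 entries with library totals, 5 with TPM totals, 9 without a filter and 4 to 11 without 1 library each. The 5 with library totals did not include miR-317-x or miR-184-z. Lists changed sign of their median with library totals, to 0.07 for ecdysone signalling, 0.04 for growth, 0.16 for reproduction, 0.0032 for muscle and 0.12 for neurons. Over 35 named entries, each with a value in 22 to 25 settings, 846 values kept their sign and side, 1 passed (miR-7197-y) and 1 reversed. That was the predicted 20 nt entry, at -0.013 without library 3 of the 5th instar and at -0.013 to 3.04 over the settings that leave out 1 library. Depth limits the untested entries, which held at most 352 counts each over all 9 libraries.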
